A study of Homo sapiens with 6 samples.

Results

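Expression of 9 genes of transforming growth factor beta (TGF-beta) signalling was examined after knockdown of INO80, the ATPase of a chromatin remodelling complex, in renal tubular cells. The 9 genes were taken by symbol from a table of 57905 genes: the ligands TGFB1 and TGFB2, the receptors TGFBR1 and TGFBR2, the signal transducers SMAD2, SMAD3 and SMAD4, the inhibitor SMAD7 and the target gene CTGF, which is now named CCN2. The choice was by symbol, made with earlier results of these data known. All 9 were among the 15343 genes with enough reads to be tested. HK-2 (human kidney-2) is an immortalized line of human proximal tubular cells, labelled wild type (WT) in both groups. In the control group, 3 libraries came from cells transfected with a non-targeting pool of siRNAs, and in the INO80 siRNA group 3 libraries came from cells that received pooled siRNAs directed at INO80. All cells were harvested 48 h after transfection with RNAiMAX, in medium with serum and with no added TGF-beta named in the labels. A pool of siRNAs does not separate the effect of losing INO80 from that of any single siRNA. The labels do not say whether the 3 libraries of a group came from separate cultures, so p-values measure the spread between these libraries, which may be technical.

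TGF-beta ligands are secreted in a latent form and, once released, bind the type II receptor TGFBR2, which recruits and phosphorylates the type I receptor TGFBR1. TGFBR1 phosphorylates SMAD2 and SMAD3, which join SMAD4 and enter the nucleus to regulate transcription. SMAD7 is itself induced by the pathway and blocks it at the receptor, and CTGF encodes a secreted matricellular protein induced by TGF-beta and by the YAP and TEAD factors. In the kidney the pathway is known for its part in fibrosis, in which tubular cells are a source of both TGF-beta and CTGF.

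For orientation, a reference promoter window of each of the inducible members, CTGF and SMAD7, is shown. All 9 genes matched 24 windows of 300 bases (250 before to 50 after an annotated gene start) of RefSeq on GRCh38.p14. The letters searched on both strands were CAGAC, the short SMAD-binding element, GTCTAGAC, its palindrome, and GGAATG, the core of TEAD sites. Capitals mark matches, and the motifs do not overlap each other in these windows.
CTGF (CCN2), chr6:131951323-131951622, minus strand: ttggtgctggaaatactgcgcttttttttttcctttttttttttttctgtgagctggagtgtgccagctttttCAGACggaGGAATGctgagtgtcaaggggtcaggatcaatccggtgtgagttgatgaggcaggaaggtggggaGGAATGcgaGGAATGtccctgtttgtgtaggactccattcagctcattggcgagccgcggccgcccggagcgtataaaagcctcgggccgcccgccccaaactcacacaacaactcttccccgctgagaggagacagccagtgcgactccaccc
SMAD7, chr18:48950916-48951215, minus strand: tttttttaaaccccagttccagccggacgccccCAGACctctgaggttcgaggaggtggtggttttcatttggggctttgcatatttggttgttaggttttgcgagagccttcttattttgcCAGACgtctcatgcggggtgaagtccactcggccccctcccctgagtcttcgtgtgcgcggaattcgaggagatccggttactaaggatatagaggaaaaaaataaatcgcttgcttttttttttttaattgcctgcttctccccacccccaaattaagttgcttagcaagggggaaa
The CTGF window held 1 CAGAC, 177 bases before the start, and 3 GGAATG, beginning 169, 104 and 95 bases before it. Among 35116 windows of all genes, 45.26% held CAGAC, 14.03% held GGAATG and 0.128% held 3 or more GGAATG. The SMAD7 window shown, 1 of 3 for that gene, held 2 CAGAC, 217 and 128 bases before the start, and no GGAATG. GTCTAGAC was in 0.2022% of all windows and in none of the 24. CAGAC was found for 5 of the 9 genes, in 11 of their 24 windows. GGAATG was found in 3 of the 24 windows, 1 each of CTGF, TGFB2 and TGFBR1. These matches describe the reference letters only, and no binding was measured here. Letters outside the windows were not searched.

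The table held 16829273 to 20311588 counted reads per control library and 20678008 to 23784599 per INO80 siRNA library. INO80 (ENSG00000128908, chromosome 15 from 41271078 to 41408552 in GRCh37), the targeted gene, was at 46.3, 49.3 and 54.0 CPM (the counts-per-million scale, normalized by the TMM method) in control replicates 1, 2 and 3 and at 13.8, 12.0 and 14.2 in the INO80 siRNA replicates. It was 0.267 times the control level (log2 fold change -1.90, SE 0.0956, adjusted p = 0.000161, edgeR's quasi-likelihood test with Benjamini-Hochberg adjustment over all tested genes). Replicate 1 of both groups stood apart on the first principal component (32.1% of the variance), at -25.3 and -15.9 against 6.81 to 13.5 for the other libraries, and treatment separated on the second (24.6%). Libraries with the same number deviated together, so each comparison was fitted without and with the replicate number as a block, and without replicate 1. Of the proximal tubule and epithelial markers, GGT1, KRT8, KRT18, KRT19 and EPCAM were expressed, MME was at a mean of 2.03 FPKM (reads scaled to exonic length and library total, a fragments-per-kilobase-per-million scale), and 6 of 12 were below 1 FPKM in every library. These 6 were ANPEP, LRP2, CUBN, SLC34A1, AQP1 and CDH1, among them genes that define the mature proximal tubule, and LRP2 had 1 read in all libraries together. Endothelial markers summed to at most 0.03 FPKM and leukocyte markers to between 0.28 and 0.63 FPKM. Fibroblast markers summed to 46.5 to 111.1 FPKM in control and 43.9 to 95.1 in INO80 siRNA libraries, nearly all from LUM, with the highest sum in replicate 1 of each group, while PDGFRA, THY1 and POSTN were at or near 0. Of the 6 epithelial markers tested, the block called 1 higher and 2 lower, and of the 3 fibroblast markers tested, 1 each way. Over all tested genes it called 11.4% higher and 13.4% lower. Without the block none of these markers was called. EPCAM, an epithelial adhesion protein, moved most clearly with the groups, from 45.5 ± 3.48 FPKM in control to 36.98 ± 4.50 under INO80 siRNA (SD, n = 3) with no overlap, and the part of these markers in the results was not tested.

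Without the block, none of the 9 genes passed an adjusted p of 0.05, against 1.75% of all tested genes (0.261% higher and 1.49% lower). Unadjusted p-values were under 0.05 for 2 of them, TGFBR2 and SMAD3, against 16.4% of all tested genes, and DESeq2 and limma also called 0. With the replicate block, 4 of 9 passed: TGFBR2, SMAD7 and CTGF were higher and SMAD3 was lower under INO80 siRNA. This fit called 24.8% of all tested genes (11.4% higher and 13.4% lower), so a call was common. The median log2 fold change of the 9 genes was 0.01 in both fits, the same as that of all tested genes to 2 decimals. Without replicate 1 in both groups, 0 of 9 passed without the block, against 3.37% of all tested genes (0.575% higher and 2.8% lower), and 4 of 9 passed with it (TGFBR2 and SMAD7 higher, TGFB2 and SMAD3 lower), against 25.4% (11.3% higher and 14.1% lower). All 3 pairs had the same sign for 5 of 9, higher for TGFBR2, SMAD2, SMAD7 and CTGF and lower for SMAD3, against 26.8% higher and 25.9% lower of all tested genes. In edgeR fits of all 6 libraries with TMM scaling and the low-count filter, without or with the block, the fold changes of the 9 genes lay between -0.22 and 0.22 on the log2 scale.

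**Figure D1:**
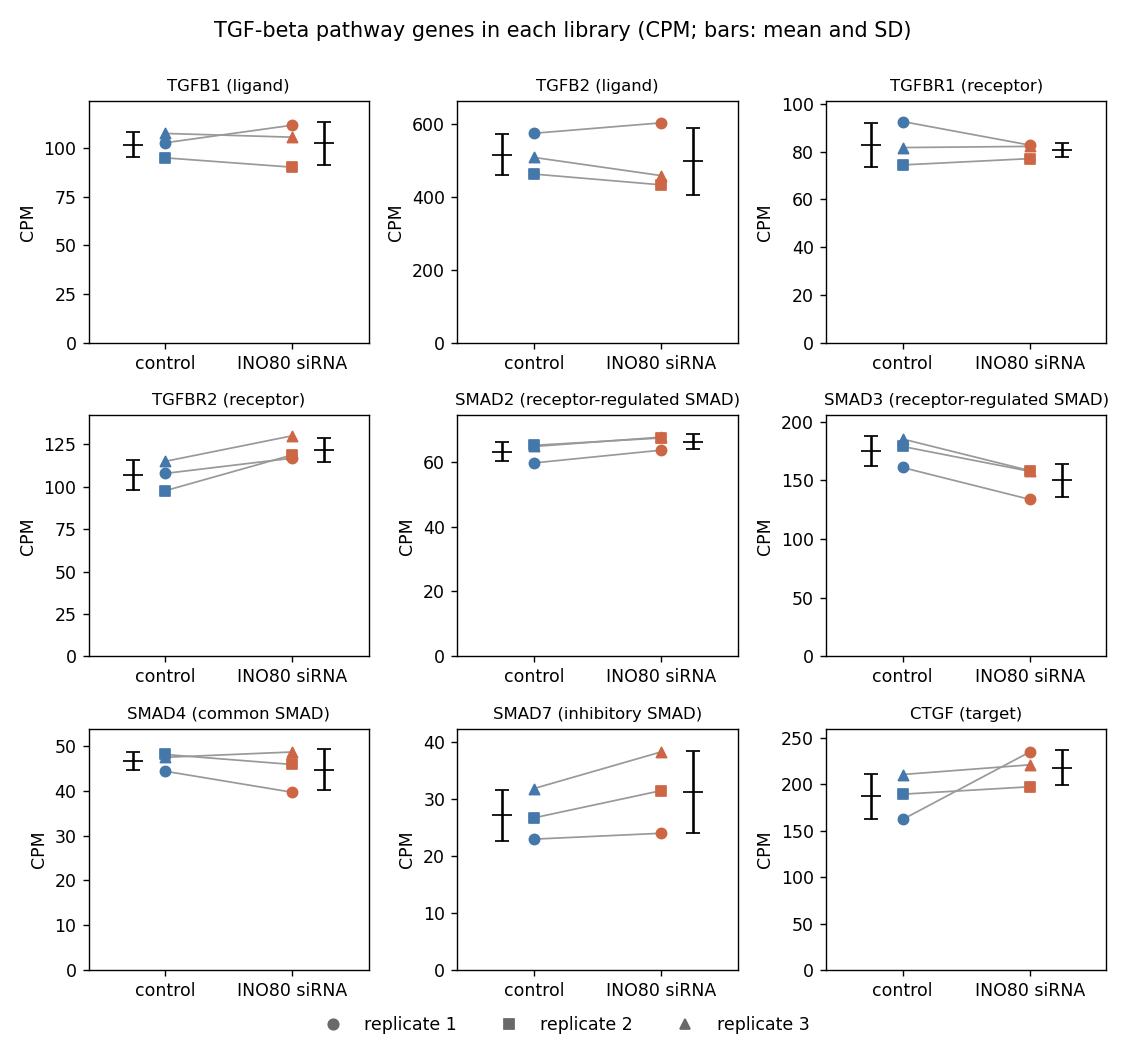
TMM-scaled CPM (vertical axes from 0) of each gene in the 3 control (blue) and 3 INO80 siRNA (orange) libraries, with libraries of the same replicate number joined and bars for mean and SD. SMAD3 is lower and TGFBR2 higher at the INO80 siRNA end of all 3 lines, and the CTGF line of replicate 1 is the steepest, from 162.2 to 235.0.

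Levels of the genes are compared per exonic length, as FPKM. In the control libraries TGFB2 was the highest at 99.5 ± 9.17 FPKM (SD, n = 3), followed by CTGF at 79.9 ± 11.6. TGFB1 was at 31.2 ± 1.98, TGFBR2 at 22.6 ± 1.87, SMAD3 at 19.1 ± 1.71 and TGFBR1 at 12.1 ± 1.13. SMAD7 was at 7.35 ± 1.31, SMAD2 at 4.57 ± 0.300 and SMAD4 at 3.47 ± 0.212. Neighbours in this order did not overlap among the control libraries, except TGFB2 (lowest 90.38) and CTGF (highest 90.66). The order of the means was the same under INO80 siRNA. TGFB2 exceeded CTGF within 4 of the 6 libraries: all 3 controls and INO80 siRNA replicate 1. In INO80 siRNA replicates 2 and 3, TGFB2 was at 85.48 and 90.68 FPKM and CTGF at 85.8 and 96.29. The exonic lengths counted for SMAD2 (13770 bases) and SMAD4 (13363 bases) join all annotated exons, which lowers their FPKM where cells use shorter transcripts.

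**Figure D2:**
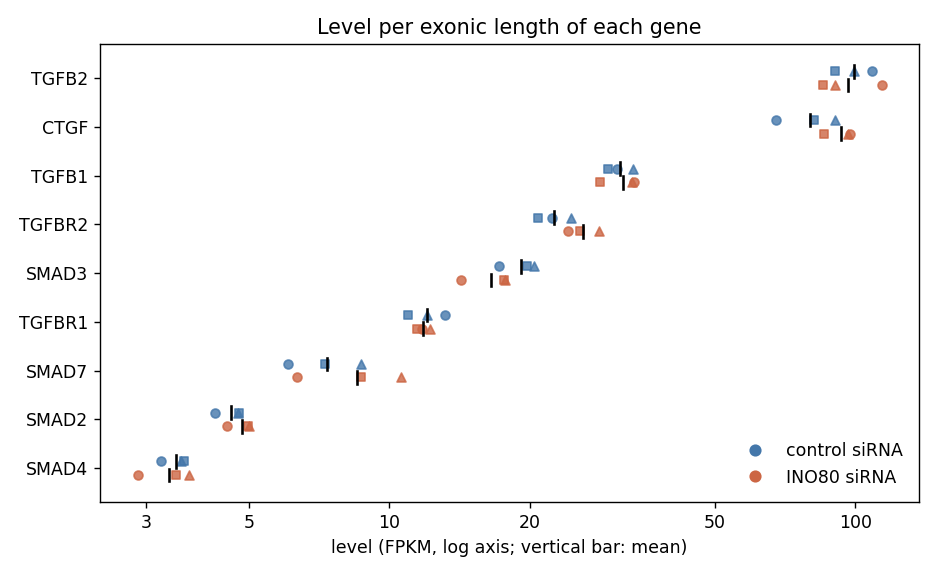
FPKM on a log axis of each gene in every library (points, blue for control and orange for INO80 siRNA, with circles, squares and triangles for replicates 1, 2 and 3, and vertical bars for means), ordered by control mean. The levels run from SMAD4 at 3.47 to TGFB2 at 99.5 FPKM, and the groups of every gene overlap on this scale.

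Replicate 1 had the lowest CPM of both groups for 4 of the 9 genes (SMAD2, SMAD3, SMAD4 and SMAD7) and the highest of both groups for 2 (TGFB2 and TGFBR1). Neither ligand was called in the fits with all 6 libraries. TGFB1 (ENSG00000105329, chromosome 19 from 41807492 to 41859816, minus strand, in GRCh37 as are all gene spans here) encodes the most widely expressed of the TGF-beta ligands. It was at 102.6, 94.9 and 107.4 CPM in control replicates 1, 2 and 3 and at 111.6, 90.1 and 105.5 under INO80 siRNA, and the groups overlapped. Its log2 fold change was 0.01 (SE 0.0886, 95% interval -0.19 to 0.21, adjusted p = 0.972 by edgeR), and the interval narrowed to -0.09 to 0.10 with the block. The span of TGFB1 overlaps HNRNPUL1 and CCDC97 on the opposite strand, with mean counts of 8506.5 and 601 per library. The library kit keeps strand but the strand setting of the counting is not given in the sources used here, so reads of overlapping genes could be mixed.

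TGFB2 (ENSG00000092969, chromosome 1 from 218519577 to 218617961, plus strand), the second ligand, had the highest level of the set. Its CPM was 574.8, 462.9 and 508.7 in control and 603.4, 433.2 and 458.6 in INO80 siRNA replicates, so it was higher in pair 1 and lower in pairs 2 and 3. The log2 fold change was -0.05 (SE 0.130, adjusted p = 0.898) and -0.06 with the block (SE 0.0368, adjusted p = 0.275). Without replicate 1 the blocked fit called TGFB2 lower, by -0.13 on the log2 scale (adjusted p = 3.9e-05, edgeR). That fit has 4 libraries, and all its adjusted p-values rest on a spread pooled over genes.

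The receptors differed from each other in their values. TGFBR1 (ENSG00000106799, chromosome 9 from 101866320 to 101916474, plus strand), the type I receptor kinase, was at 92.6, 74.5 and 81.7 CPM in control and 82.8, 77.1 and 82.2 in INO80 siRNA libraries. The INO80 siRNA values lay within the control range, with a log2 fold change of -0.04 (SE 0.0842, 95% interval -0.23 to 0.15, adjusted p = 0.870, edgeR) and no call with the block (adjusted p = 0.667).

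TGFBR2 (ENSG00000163513, chromosome 3 from 30647994 to 30735634, plus strand), the type II receptor that binds the ligand, was at 107.8, 97.6 and 114.9 CPM in control and at 116.8, 118.8 and 130.0 under INO80 siRNA. Every INO80 siRNA library lay above every control library in CPM, but the groups overlapped in FPKM, which carries no TMM scaling (20.87 to 24.59 against 24.15 to 28.15). The log2 fold change was 0.19 (SE 0.0764, adjusted p = 0.262, edgeR), 1.14 times the control level, and the blocked fit gave the same size with an SE of 0.0421 (adjusted p = 0.00118). The exact two-sided permutation p was 0.1, the smallest that 3 libraries against 3 allow. Groups did not overlap in CPM for 2 of the 9 genes, TGFBR2 and SMAD3, against 22.8% of all tested genes. In bulk RNA a change in the mix of cells and one in the RNA per cell cannot be told apart. Leaving out pair 2, whose difference was the largest (0.28 against 0.12 and 0.18), ended the blocked call (log2 fold change 0.15, adjusted p = 0.0648), while it held without pair 1 (0.23, adjusted p = 3.5e-07) and without pair 3 (0.20, adjusted p = 0.0150).

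Of the SMADs, SMAD3 was lower and SMAD2 and SMAD4 showed no call in any edgeR fit. SMAD3 (ENSG00000166949, chromosome 15 from 67356101 to 67487533, plus strand), a receptor-regulated SMAD that binds DNA directly, was at 160.9, 178.8 and 185.2 CPM in control and at 133.7, 157.6 and 158.2 in INO80 siRNA replicates. All INO80 siRNA values were below all control values in CPM, and in FPKM the groups overlapped (17.2 to 20.45 against 14.26 to 17.68). The log2 fold change was -0.22 (SE 0.0845, adjusted p = 0.235, edgeR), 0.857 times the control level. With the block the SE was 0.0374 and the adjusted p 6.4e-05. The paired differences were -0.27, -0.18 and -0.23, and the blocked call held without each pair in turn, at -0.21 without pair 1, -0.25 without pair 2 and -0.22 without pair 3. Without the block, leaving out INO80 siRNA replicate 1 gave -0.15. SMAD3 was the one gene of the 9 whose blocked call held in all 3 of these fits. How many of all tested genes held in the same way is not given, so this has no baseline.

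SMAD2 (ENSG00000175387, chromosome 18 from 45357922 to 45457515, minus strand), the other receptor-regulated SMAD, was at 59.6, 65.0 and 64.7 CPM in control and 63.5, 67.3 and 67.5 in INO80 siRNA libraries. It was higher in all 3 pairs, by 0.09, 0.05 and 0.06 on the log2 scale, but the groups overlapped and neither fit called it (log2 fold change 0.07, SE 0.0632, adjusted p = 0.663, and with the block SE 0.0471, adjusted p = 0.331). SMAD4 (ENSG00000141646, chromosome 18 from 48494410 to 48611415, plus strand), the common partner of both, was at 44.3, 48.1 and 47.4 CPM in control and 39.6, 45.8 and 48.6 under INO80 siRNA. Its log2 fold change was -0.06 (SE 0.0868, 95% interval -0.26 to 0.14, adjusted p = 0.791, edgeR). Its span overlaps ELAC1 on the same strand, a gene with a mean count of 64.7.

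SMAD7 (ENSG00000101665, chromosome 18 from 46446223 to 46477081, minus strand), the inhibitory SMAD, had the largest spread among replicates relative to its mean in both groups, at 27.2 ± 4.45 and 31.3 ± 7.14 CPM (SD, n = 3). It was at 23.0, 26.7 and 31.9 CPM in control and 24.0, 31.5 and 38.3 in INO80 siRNA libraries, so the groups overlapped, while each INO80 siRNA library exceeded the control library of its number. The paired differences were 0.06, 0.24 and 0.26 on the log2 scale. The log2 fold change was 0.20 in both fits, with an SE of 0.176 without the block (adjusted p = 0.631) and 0.0653 with it (adjusted p = 0.0258, edgeR). Without the block the value moved to 0.031 without INO80 siRNA replicate 3, 0.098 without control replicate 1, 0.33 without control replicate 3 and 0.36 without INO80 siRNA replicate 1, and none of these was called. The blocked call was lost without pair 2 (0.18, adjusted p = 0.166) and without pair 3 (0.16, adjusted p = 0.256), and it held without pair 1 (0.25, adjusted p = 0.00280).

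CTGF (ENSG00000118523, chromosome 6 from 132269316 to 132272513, minus strand), the target gene whose promoter letters are given above, was at 162.2, 189.5 and 210.7 CPM in control and at 235.0, 197.5 and 221.1 in INO80 siRNA replicates. The groups overlapped, and the order of the replicates differed between them: replicate 1 was the lowest control and the highest INO80 siRNA library. The log2 fold change was 0.22 (SE 0.103, 95% interval -0.02 to 0.45, adjusted p = 0.349), 1.16 times the control level, and the blocked fit called it (SE 0.0560, adjusted p = 0.00546, edgeR). The paired differences were 0.53, 0.06 and 0.07 on the log2 scale. Without pair 1 the blocked log2 fold change was 0.06 (adjusted p = 0.170), against 0.30 without pair 2 and 0.29 without pair 3, so 1 pair held most of the difference. With single libraries left out, the value without the block was lowest without control replicate 1, at 0.12. The summed fibroblast markers of replicate 1 were at 111.09 FPKM in control and 95.13 under INO80 siRNA, both above the other libraries of their group. Within that list LUM was at 106.02 and 89.29 FPKM and DCN at 4.95 and 5.73, so they differed in opposite directions, and their part in the CTGF difference was not tested.

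**Figure D3:**
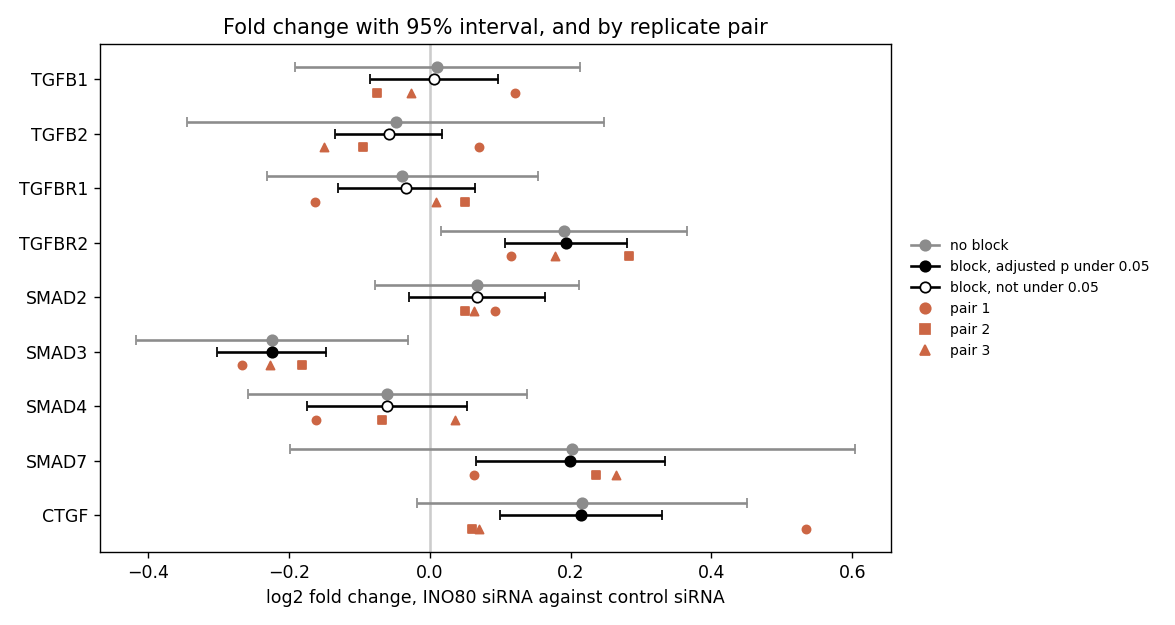
Log2 fold changes (horizontal axis, INO80 siRNA against control siRNA) with 95% intervals from edgeR without the block (grey) and with it (black, filled where the adjusted p was under 0.05), and the difference of each replicate pair (orange). The block narrows the intervals and leaves the centres in place, and the pair 1 point of CTGF, at 0.53, lies apart from those of pairs 2 and 3.

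Ratios within a library do not depend on how libraries are scaled, and 4 were fixed. The ratio of SMAD2 to SMAD3 in FPKM was 0.245, 0.241 and 0.231 in control and 0.314, 0.283 and 0.283 in INO80 siRNA replicates. It was 0.29 higher on the log2 scale, with no overlap between the groups (exact two-sided permutation p = 0.1, the smallest possible, and 0.2 adjusted over the 4 ratios). The ratio of TGFBR2 to TGFBR1 was 1.69, 1.91 and 2.05 in control and 2.05, 2.24 and 2.30 under INO80 siRNA. It too did not overlap, by a narrow margin (2.046 against 2.054), with the same exact p of 0.1 (adjusted 0.2).
The ratio of SMAD7 to SMAD4 was 2.11 ± 0.290 and 2.51 ± 0.326 (SD, n = 3, exact permutation p = 0.2, adjusted 0.267), higher in all 3 pairs with overlapping groups. The ratio of TGFB2 to TGFB1 was 3.19 ± 0.292 and 3.05 ± 0.334 (SD, n = 3, exact permutation p = 0.6). With 3 libraries against 3 no ratio could reach 0.05 in this test.

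**Figure D4:**
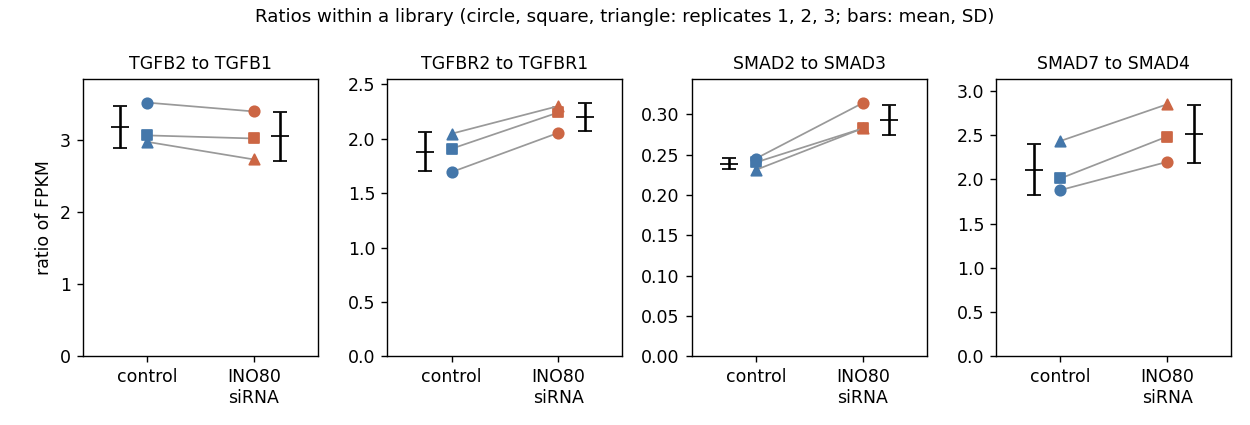
Ratios of FPKM within each library (vertical axes from 0) for 4 pairs of genes, control in blue and INO80 siRNA in orange, with same-numbered replicates joined and bars for mean and SD. The SMAD2 to SMAD3 ratio is between 0.231 and 0.245 in controls and between 0.283 and 0.314 under INO80 siRNA.

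The other genes of the pathway were taken from 7 lists of 88 genes in all, of which 79 were tested. Without the block 2 were lower and none was higher (edgeR, adjusted p under 0.05), against 1.49% and 0.261% of all tested genes. With the block 14 were higher, 14 were lower and 51 were not called, 28 of 79 against 24.8% of all tested genes, and the median log2 fold change was 0.01. Of the 28, 14 held without each pair in turn (6 higher and 8 lower). The share of all tested genes that held in this way is not given, so this count has no baseline. The same applies to the single genes below that held.

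Both genes called without the block were lower. BMPR2, the type II receptor for bone morphogenetic proteins, was at 111.7, 105.3 and 105.1 CPM in control and 84.1, 87.2 and 90.4 under INO80 siRNA (log2 fold change -0.30, SE 0.0584, adjusted p = 0.0472, edgeR). DLC1, a GTPase-activating protein for RhoA listed among the targets of YAP and TEAD, was at 132.5, 159.6 and 156.8 CPM in control and 102.0, 105.6 and 102.8 under INO80 siRNA (log2 fold change -0.53, SE 0.0777, adjusted p = 0.0204). Neither gene's groups overlapped. The BMPR2 call was lost when any single library was left out (adjusted p 0.0964 to 0.161), and the DLC1 call was lost without control replicate 2 (0.0978), control replicate 3 (0.114), INO80 siRNA replicate 2 (0.0845) or INO80 siRNA replicate 3 (0.122). Neither was called by limma on FPKM, and both were called by DESeq2. Both held in the blocked fit (adjusted p = 1.6e-05 and 1.2e-09) and there without each pair in turn.

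Among 6 tested other ligands, the block called 1 higher and 2 lower, against 11.4% and 13.4% of all tested genes. TGFB3, the third TGF-beta ligand, was at 4.57, 3.38 and 2.90 CPM in control and 2.39, 2.20 and 2.44 under INO80 siRNA, with a blocked log2 fold change of -0.60 (adjusted p = 0.0253, edgeR). That call was lost without pair 1 (adjusted p = 0.186) and without pair 2 (0.0847). GDF11, an activin-like ligand, was lower by -0.30 (adjusted p = 0.00167) and held without each pair. GDF15, a stress-induced cytokine, was higher by 0.19 (adjusted p = 0.00915), and its call was lost without pair 2 (0.136) or pair 3 (0.0677). INHBA, which encodes the subunit of activin A and had the highest level of the list at 50.2 FPKM, was not called (blocked log2 fold change -0.09, adjusted p = 0.0970).

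Of 10 genes for the storage and release of latent TGF-beta, the block called 3 higher and none lower. Over all tested genes it called 11.4% higher and 13.4% lower. LRRC32, which holds latent TGF-beta at the cell surface, was at 1.04, 1.13 and 2.02 CPM in control and 1.54, 2.57 and 3.59 under INO80 siRNA. Its blocked log2 fold change of 0.89 (SE 0.239, adjusted p = 0.00713, edgeR) belonged to a gene of 0.448 FPKM, and the call was lost without pair 2 (0.0791) or pair 3 (0.0698). ITGB6, a subunit of the integrin that activates latent TGF-beta, was higher by 0.19 (adjusted p = 0.0211), lost without pair 3 (0.294). THBS1, a matrix protein that activates latent TGF-beta and the most expressed of the list at 189.1 FPKM, was at 1918, 1969 and 1993 CPM in control and 2514, 1956 and 2008 under INO80 siRNA. As for CTGF, replicate 1 carried its difference: the blocked log2 fold change was 0.13 (adjusted p = 0.0418) with all pairs and -0.0037 (adjusted p = 0.938) without pair 1. ITGAV, the integrin alpha subunit partnered with ITGB6, was at 161.6 FPKM and was not called (0.03, adjusted p = 0.481). Without replicate 1 the list had 2 genes higher and 3 lower in the blocked fit, against 11.3% and 14.1% of all tested genes.

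Of 10 other receptors, BMPR2 alone was called in the blocked fit too, against 24.8% of all tested genes. ACVR1, a type I receptor with the highest level of the list at 9.66 FPKM, was not called (0.04, adjusted p = 0.701). Of 18 other SMADs and SMAD regulators, the block called 2 higher and 2 lower, against 11.4% and 13.4% of all tested genes. SKIL, a corepressor of SMADs that the pathway induces, was higher at 112.2, 110.8 and 115.6 CPM against 101.2, 97.4 and 102.5 in control (blocked log2 fold change 0.17, adjusted p = 0.00282, edgeR). SKI, its relative, was lower at 83.2, 82.9 and 75.0 against 88.6, 98.8 and 93.4 (-0.22, adjusted p = 0.000819). Both held without each pair, and neither gene's groups overlapped. TGIF1, a homeodomain corepressor, was higher by 0.17 (adjusted p = 0.00265), lost without pair 2 (0.0887). BAMBI, a pseudoreceptor that dampens the signal, was lower by -0.31 (adjusted p = 0.0153), lost without pair 3 (0.124). FKBP1A, which binds the type I receptor, and STRAP, which binds receptors and SMAD7, had the highest levels (170.7 and 144.7 FPKM) and were not called (adjusted p = 0.877 and 0.339 with the block).

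Of 21 tested other TGF-beta targets, the block called 7 higher and 5 lower, against 11.4% and 13.4% of all tested genes. LOX, which crosslinks collagen, was higher by 0.42 with the block (adjusted p = 5.9e-07, edgeR), COL1A1, a chain of type I collagen, by 0.32 (adjusted p = 0.000102) and BHLHE40, a transcriptional repressor, by 0.27 (adjusted p = 1.3e-05). On the other side, SNAI2, a repressor of epithelial genes, was at 28.1, 36.9 and 41.5 CPM in control and 16.0, 22.2 and 23.6 under INO80 siRNA, with no overlap (blocked log2 fold change -0.78, adjusted p = 1.2e-09, and 0.0727 without the block). PDGFB, a growth factor subunit, was lower by -0.66 with the block (adjusted p = 9.0e-11). These 5 calls held without each pair. Without the block LOX, COL1A1, BHLHE40 and PDGFB were not called (adjusted p = 0.546, 0.214, 0.248 and 0.391, edgeR). The groups of each of them overlapped in CPM. FN1, which encodes fibronectin and had the highest level at 1490 FPKM, was lower by -0.10 (adjusted p = 0.00756), and this was lost without pair 3 (0.382).

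Of 12 targets of YAP and TEAD, the block called 1 higher and 3 lower (4 of 12, against 24.8% of all tested genes). Without replicate 1 it called none higher and 4 lower, against 11.3% and 14.1% of all tested genes. CYR61, another CCN family member and the most expressed of the list at 789.1 FPKM, was at 2208, 1933 and 1982 CPM in control and 2186, 1679 and 1670 under INO80 siRNA. It was lower by -0.15 with the block (SE 0.0352, adjusted p = 0.00173, edgeR) and by -0.23 without pair 1, and the call was lost without pair 3 (adjusted p = 0.197). AXL, a receptor tyrosine kinase, was at 140.3 FPKM and was not called (0.06, adjusted p = 0.207). Of 2 other tested CCN genes, NOV was lower by -0.39 (adjusted p = 8.4e-05), which held without each pair, and WISP2 was at 0.188 FPKM and not called (adjusted p = 0.855).

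**Figure D5:**
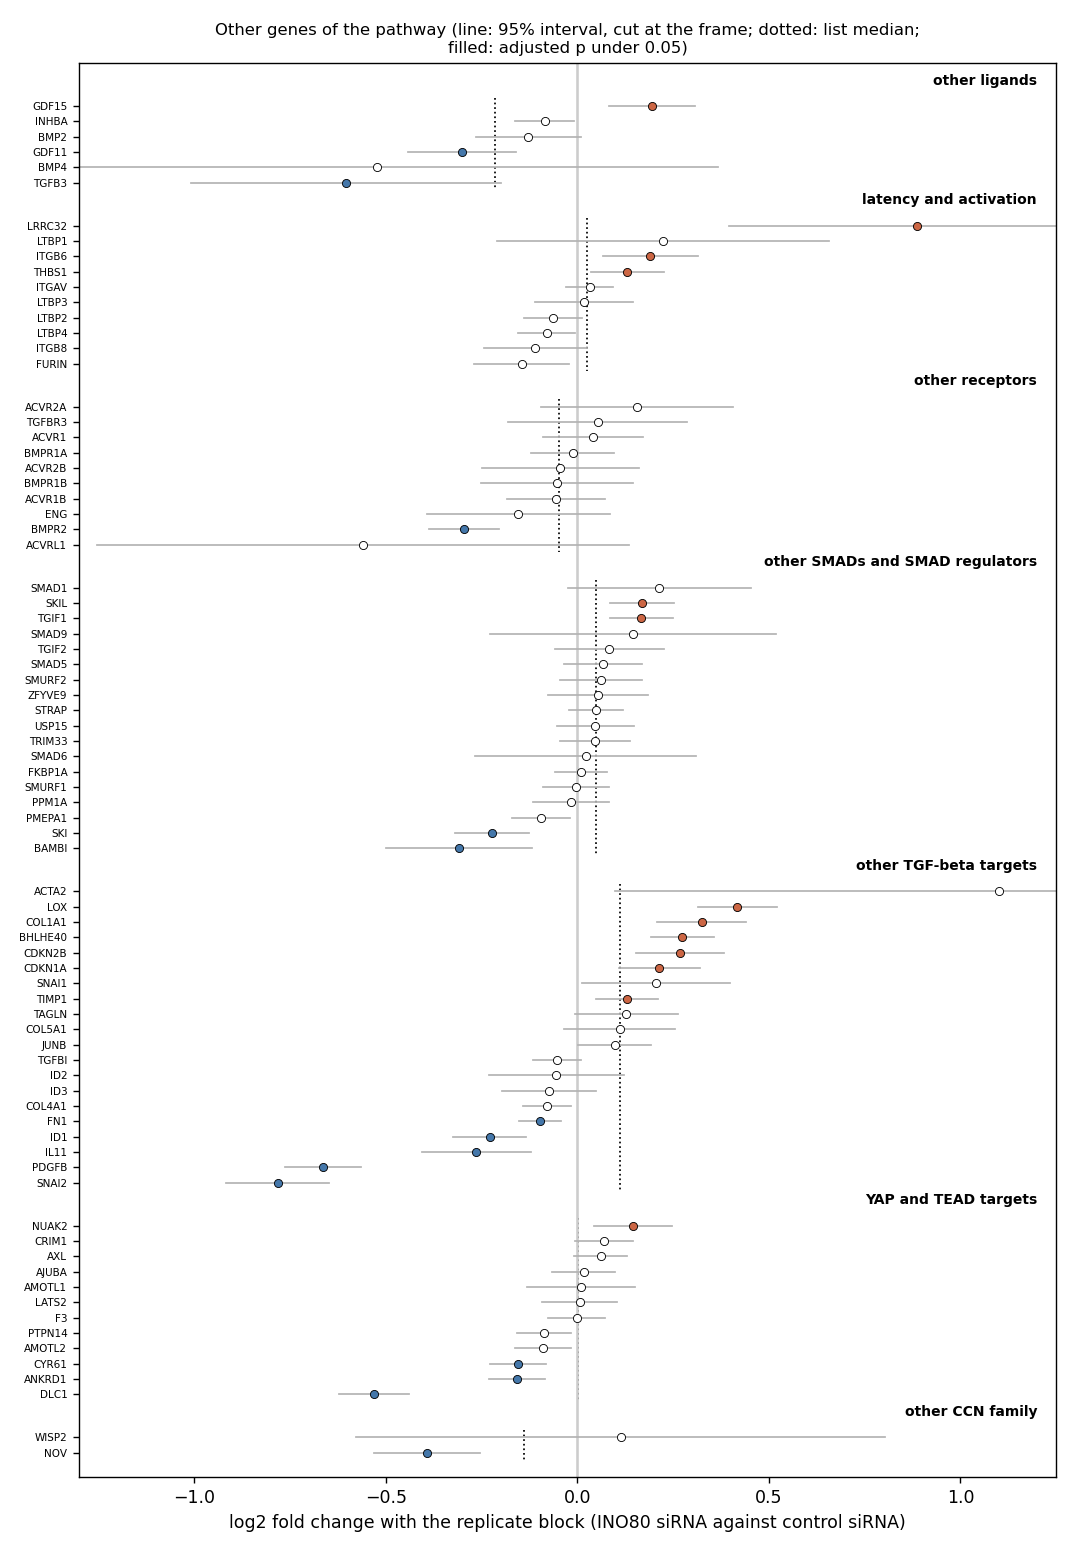
Blocked log2 fold changes (horizontal axis, INO80 siRNA against control siRNA) of 78 of the 79 tested genes of the other 7 lists, each with its 95% interval from edgeR, filled in orange (higher) or blue (lower) where the adjusted p was under 0.05. Called genes lie on both sides of 0 in 4 of the 7 lists, 13 higher and 14 lower among those drawn.

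Across the 6 libraries and 9736 genes of a mean CPM of at least 10, the log2 CPM pattern most like that of CTGF was that of SART1 (Pearson r = 0.998), followed by ZNF12 and ARMC5 (both 0.987). For TGFB2 these were SMTN (0.995), NFE2L3 (0.995) and FARP1 (0.993), and for SMAD7 FLCN (0.993), CNBP (0.992) and SRSF9 (0.991). These are descriptions over 6 points that share their libraries and replicate differences, picked as the highest of many.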

How the data were processed

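RNA-seq of 6 HK-2 libraries, 3 per group, was analysed from a single table in which the authors deposited raw read counts per gene and FPKM values. The submitters' processing notes name HISAT2 2.0.1, HTSeq and hg19, the paper's methods name ELAND and hg38, and the gene coordinates in the table are those of GRCh37. All FPKM values equalled the count divided by exonic length and library total within 0.011, so they hold no scaling beyond the total. HTSeq's strand setting was not given in the sources used here. Sequencing was of poly-A RNA with a directional kit.

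In R 4.3.3, deposited counts were tested with edgeR 4.0.16 (filterByExpr, TMM, quasi-likelihood test) with treatment alone, and p-values were adjusted by Benjamini-Hochberg over the 15343 tested genes. A call is an adjusted p under 0.05. CPM are TMM-scaled. The SE is the log2 fold change divided by the square root of F. Blocked fits use the replicate number: deviations from group means correlated at 0.581, 0.365 and 0.360 across genes for same-numbered libraries and at most at 0.152 otherwise. The labels state no pairing, so this rests on the data. Alternatives were DESeq2 1.42.0, limma 3.58.1 on log2(FPKM + 0.1) or log2(FPKM + 1), other filters and scaling, and libraries left out. Blocked fits without pair 2 or 3 were added after seeing the data. In simulated data for this comparison with a pair effect, each fit recovered 100 of 100 genes changed by 2 on the log2 scale. Of 100 genes changed by 0.4, edgeR recovered 4 without the block and 47 with it, on 15128 genes. In data simulated without a pair effect these were 33 and 34. The pair effect and the spread were set by hand, no change under 0.4 was simulated and false calls are not given, so only recovery is described.

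The 9 genes, the lists and the tests were chosen with earlier results of these data known. In each list, genes called without the block were named, otherwise up to 6 called with it, together with the 2 of highest FPKM, and for CTGF, TGFB2 and SMAD7 the 3 genes of most similar pattern. Results for 1 gene of the lists are not reported here by name, though it is in the counts. PECAM1 was not matched among the markers, and for AQP1 the row with more counts was used. Depth limits precision for low genes, and the sources name no molecular identifiers, so errors from amplification are not covered.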

Additional observations from a re-analysis of the deposited data

How the results depend on the processing

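The number of pathway genes called depended most on the replicate block. Of the 9 genes, 4 were called with the block (3 higher and 1 lower), 4 with the block without replicate 1 (2 higher and 2 lower), 2 without replicate 2 and 3 without replicate 3. None was called by edgeR without the block, with another filter or scaling, by DESeq2 or limma, or with any library left out. Of the 79 other pathway genes, 28 were called with the block and 33, 22 and 21 with it without replicates 1, 2 and 3, against 2 without the block. The count was 8 without the low-count filter, 4 without replicate 1, 0 with limma at either pseudocount and 0 to 1 with single libraries left out. Fits with another filter or with libraries left out chose their tested genes anew, so their counts need not all be among the 79. Of all genes tested, 268 were called without the block, 637 by DESeq2, 708 without the filter, 20 and 7 by limma with pseudocounts of 0.1 and 1, 528 without replicate 1 and 18 to 146 with single libraries left out. With the block 3798 were called, and 3978, 2623 and 2251 without replicates 1, 2 and 3. This was 24.8% of tested genes with the block and 25.4% with it without replicate 1. The shares without replicate 2 or 3 are not given. The share of higher calls was 14.9% without the block, 46.0% with it, 45.0% by limma with a pseudocount of 0.1 and 27.1% without the filter.

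Values near 0 changed sign. Without replicate 1 the log2 fold change was -0.0522 for TGFB1 and 0.0252 for TGFBR1, and with the block as well it was -0.0537 and 0.0253. With single libraries left out, the log2 values of TGFB1 ranged from -0.055 to 0.096, of TGFB2 from -0.21 to 0.044, of TGFBR1 from -0.11 to 0.047, of SMAD4 from -0.12 to 0.018, of SMAD7 from 0.031 to 0.36, of CTGF from 0.12 to 0.30, of TGFBR2 from 0.13 to 0.24, of SMAD3 from -0.28 to -0.15 and of the TGFB2 to TGFB1 ratio from -0.15 to 0.012. The INO80 call held in every fit run. Fits without a pair hold 4 libraries, so their p-values rest on a spread pooled over genes, and depth limits low genes such as ACTA2, BMP4, LRRC32 and WISP2. The cause of these changes was not tested.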
